A study of Bos taurus with 12 samples.

Results

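Bovine embryos that arrest straight after the first cleavage were set against embryos that arrest after further cleavage, by way of the embryos that reach the blastocyst. The class called 2CB holds blastomeres whose sisters did not cleave again after separation. The class called 8CB carries an 8-cell name, but the design text and the sample descriptions place its block at the 4-cell stage. The class called BL holds blastomeres whose sisters became blastocysts. No array carried 2CB and 8CB RNA together, so BL was the link. For each replicate number the ratios of the 2 dye orientations were averaged within BL with 2CB and within BL with 8CB, and the second mean was subtracted from the first. All 12 arrays of the series entered this comparison, 6 with 2CB and 6 with 8CB.

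Bos taurus embryos at the 2-cell stage were split, one blastomere was frozen and its sister was grown alone in vitro until day 7. The frozen blastomeres, for which no strain, genotype or agent is named, were then pooled by what their sisters had done, with 15 blastomeres in each of 3 independent pools per class. Every value therefore describes a pool of 2-cell blastomeres sorted by a later event in another cell, and not arrested embryos themselves. Amplified RNA was labelled with Cy3 or Cy5 and hybridised in pairs to Agilent arrays, once in each dye orientation.

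The first cleavages of a bovine embryo run on RNA and protein laid down in the oocyte. These maternal messages are kept with short or long tails, translated when needed and degraded, while the embryo's own genome becomes active in earnest some cleavages later. Each division meanwhile needs cyclin B with CDK1 to enter mitosis, a bipolar spindle and kinetochores to part the chromosomes, and the anaphase-promoting complex (APC/C), a ubiquitin ligase, to end it. The cells live largely on pyruvate oxidised in maternal mitochondria and on stored lipid, and carry enzymes that clear the peroxide this makes.

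The deposited values are log ratios taken here as log2, and the sources used here do not give their numerator. A positive difference means that the ratio was larger in BL with 2CB than in BL with 8CB, and a negative difference the reverse. If the ratios are BL over the arrested class, a positive difference means more of the transcript in 8CB than in 2CB. If they are the arrested class over BL, it means more in 2CB. The text therefore speaks of the positive and the negative side, and of sizes in log2 units. With these ratios, fewer copies per cell and fewer contributing cells in a pool cannot be told apart, and whether a blastomere marker was present at all cannot be read.

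The ratios of the 12 arrays had medians from -0.003 to 0.010. The 2 dye orientations of a replicate number did not always carry the same deviations from their group's mean. In BL with 2CB they correlated across probes at 0.40, 0.47 and 0.25 for numbers 1, 2 and 3. In BL with 8CB the correlations were 0.36, 0.80 and -0.22. The swapped arrays of number 3 thus went apart in BL with 8CB, while its array with 8CB in Cy5 correlated at 0.24 with the BL-in-Cy5 array of number 1, and its BL-in-Cy5 array at 0.44 with the other array of number 1. Their labels were kept, and the share of each gene list at a small p is given with and without number 3. The mean difference between the classes, taken separately in the 2 orientations, correlated at 0.55 across probes, which are not independent replicates.

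**Figure D1:**
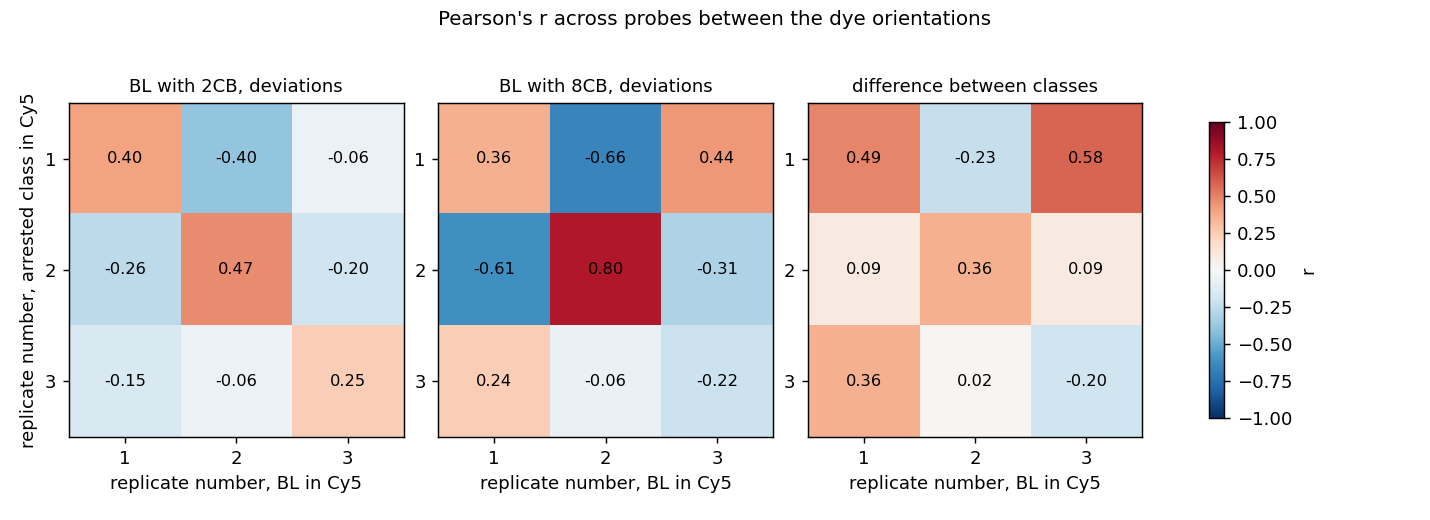
Pearson's r across probes between arrays of opposite dye orientation, by replicate number with the arrested class in Cy5 (rows) and with BL in Cy5 (columns). The left and middle squares use each array's deviation from its group mean, and the right square the difference between BL with 2CB and BL with 8CB; the diagonal holds same-numbered arrays, and its lowest value is -0.22 in BL with 8CB and -0.20 in the difference.

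No probe and no gene differed between 2CB and 8CB past an adjusted p of 0.05 in limma's paired test over 3 differences. The smallest adjusted p was 0.407 among 43793 probes and 0.45 among 15213 genes, so 0% of either was called. At an unadjusted p under 0.05 there were 4299 probes (9.82%), of which 1640 (3.74%) lay on the positive side and 2659 (6.07%) on the negative side. Over genes, the mean of their probes gave 1430 (9.4%), with 566 (3.72%) positive and 864 (5.68%) negative. Without replicate number 3 the share of probes at that level was 4.07%, below the 5% of an uncorrected 0.05 level, and that of genes was 3.49% (531 genes). The standard deviation of the mean difference over probes was 0.167, against 0.208 for the mean ratio in BL with 2CB and 0.155 in BL with 8CB. Only 224 probes and 59 genes joined an unadjusted p under 0.05 with a difference of at least 1.5-fold.

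The 3 replicate differences had little in common across the array. Numbers 1 and 3 correlated at 0.38 across probes, numbers 2 and 3 at 0.10, and numbers 1 and 2 at -0.09. Number 1 also had the widest differences, with a standard deviation of 0.317 against 0.229 and 0.222. All 3 differences had one sign at 14803 probes (33.8%) and 5132 genes (33.7%). The 3 ratios of one comparison lay wholly above the 3 of the other at 4431 probes (10.1%) and 1502 genes (9.87%), and at 943 probes (2.15%) the 3 ratios of one were all above 0 and those of the other all below.

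The genes named first are the 12 per side with the smallest p, among those with one sign in all 3 differences and in both dye orientations. That sign was part of the choice and is no result. A small p over 3 differences also favours probes whose differences are nearly equal, so that closeness and the small SE are no result either. Each of the 24 had an adjusted p of 0.407 in limma's test. Their differences ran from 0.39 to 0.94 in size. In 19 of them the 3 ratios of BL with 2CB did not overlap those of BL with 8CB, which the choice of small p favours (10.1% of all probes). For 15 genes the array held several probes, and 5 of these genes had a further probe whose difference had the other sign. Values given below for the 24 genes are those of the chosen probe unless said otherwise.

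On the negative side stood BIRC6, a giant inhibitor of apoptosis that is also a ubiquitin-conjugating enzyme. Its ratios for numbers 1, 2 and 3 were -1.04, -0.64 and -0.14 in BL with 2CB and -0.11, 0.30 and 0.80 in BL with 8CB. The groups nearly touched without overlapping, and the mean difference was -0.94 ± 0.05 (SE, n = 3). The distance within each number hardly varied, which the choice of small p favours. The other probes of BIRC6 reached up to -0.03, and over all 3 probes the gene's mean difference was -0.36 ± 0.06 (SE, n = 3).

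SCIN, a calcium-dependent protein that severs actin filaments, had ratios of -0.20, 0.13 and -0.01 in BL with 2CB and 0.58, 0.92 and 0.72 in BL with 8CB. Every value of the second set lay above every value of the first, by -0.77 ± 0.05 (SE, n = 3) as a paired difference. RASSF5, which binds active RAS-family GTPases, had -0.13, -0.27 and -0.25 against 0.57, 0.39 and 0.47, a difference of -0.69 ± 0.05 (SE, n = 3). RASSF5 was below 0 in all 3 ratios of BL with 2CB and above 0 in all 3 of BL with 8CB, at 1 of its 3 probes. Differences at the 3 probes ran from -0.69 to -0.02.

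TXNIP, which binds thioredoxin and holds it inactive, had ratios of 0.11, -0.13 and -0.30 in BL with 2CB and 0.70, 0.43 and 0.20 in BL with 8CB. These groups did not overlap, and the difference was -0.55 ± 0.05 (SE, n = 3). SLC31A1, the copper importer of the cell membrane, had -0.50, -0.61 and -0.32 against -0.02, -0.13 and 0.26, with a difference of -0.52 ± 0.06 (SE, n = 3). ACVR2A, a receptor for activin, had -0.16, -0.62 and -0.46 against 0.33, -0.02 and 0.03, a difference of -0.53 ± 0.06 (SE, n = 3). In both genes the BL-with-2CB ratios were all below 0 and the BL-with-8CB ratios lay around it. Differences ran from -0.55 to -0.03 over the 4 probes of TXNIP and from -0.53 to -0.04 over the 3 of ACVR2A. They ran from -0.52 to 0.008 over the 3 probes of SLC31A1, of which 1 had the opposite sign.

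The other negative genes were the germ-cell genes MNS1 (-0.55) and SPATA22 (-0.60), known in mouse from sperm flagella and from meiotic recombination, the zinc finger gene ZNF197 (-0.64), the mitochondrial ribosomal gene MRPS10 (-0.50), the plasma protein gene APOH (-0.50) and GMFB (-0.53), whose protein acts on branched actin. MRPS10 shows how far probes could part, since its other probe stood at 0.02. The other probe of APOH stood at 0.04, that of MNS1 at -0.05 and that of GMFB at -0.08. MNS1 also varied widely between replicate numbers, with a ratio of -0.17 ± 0.54 (SD, n = 3) in BL with 2CB.

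Among the 12 positive genes of this choice the largest difference was in GTF3C5, a subunit of the factor that brings RNA polymerase III to transfer RNA genes. Its ratios were 0.23, 0.90 and 0.79 in BL with 2CB and -0.38, 0.21 and 0.15 in BL with 8CB, a difference of 0.65 ± 0.05 (SE, n = 3). The lowest of the first set stood just above the highest of the second. FZR1, also called CDH1, activates the APC/C late in mitosis and in G1. FZR1 had ratios of 0.57, 0.52 and 0.24 against -0.03, -0.02 and -0.23, a difference of 0.54 ± 0.06 (SE, n = 3). All 3 ratios were above 0 in BL with 2CB and below 0 in BL with 8CB.

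GLRX, the cytosolic glutaredoxin that frees proteins from bound glutathione, had ratios of -0.44, -0.06 and 0.41 in BL with 2CB and -0.94, -0.54 and -0.07 in BL with 8CB. The groups overlapped, and the mean difference was 0.49 ± 0.05 (SE, n = 3). Each number differed by nearly the same amount, which the choice of small p favours. Differences at the 3 GLRX probes ran from 0.28 to 0.49. RNF8, a ubiquitin ligase that acts at DNA double-strand breaks, had 0.40, 0.18 and 0.24 against 0.01, -0.23 and -0.15. There was no overlap, and the difference was 0.39 ± 0.05 (SE, n = 3), while the other probe of RNF8 stood at 0.04. JUND, a subunit of the AP-1 transcription factor, had 0.46, 0.85 and 0.70 against -0.09, 0.28 and 0.25, again without overlap, and differed by 0.52 ± 0.06 (SE, n = 3).

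The remaining positive genes included 2 membrane carriers, SLC39A13 for zinc (0.53) and SLC7A2 for cationic amino acids (0.46). The others were GNPDA1 (0.60) of amino sugar metabolism, CHN2 (0.58), which switches off RAC, the Golgi protein gene GOLGA1 (0.56), ANKRD40 (0.54) and CHPF (0.50), which extends chondroitin chains. The 5 probes of ANKRD40 ran from -0.39 to 0.54, the other 4 having the opposite sign. The 3 probes of CHN2 ran from -0.02 to 0.58, and the 3 of GNPDA1 from 0.02 to 0.60.

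**Figure D2:**
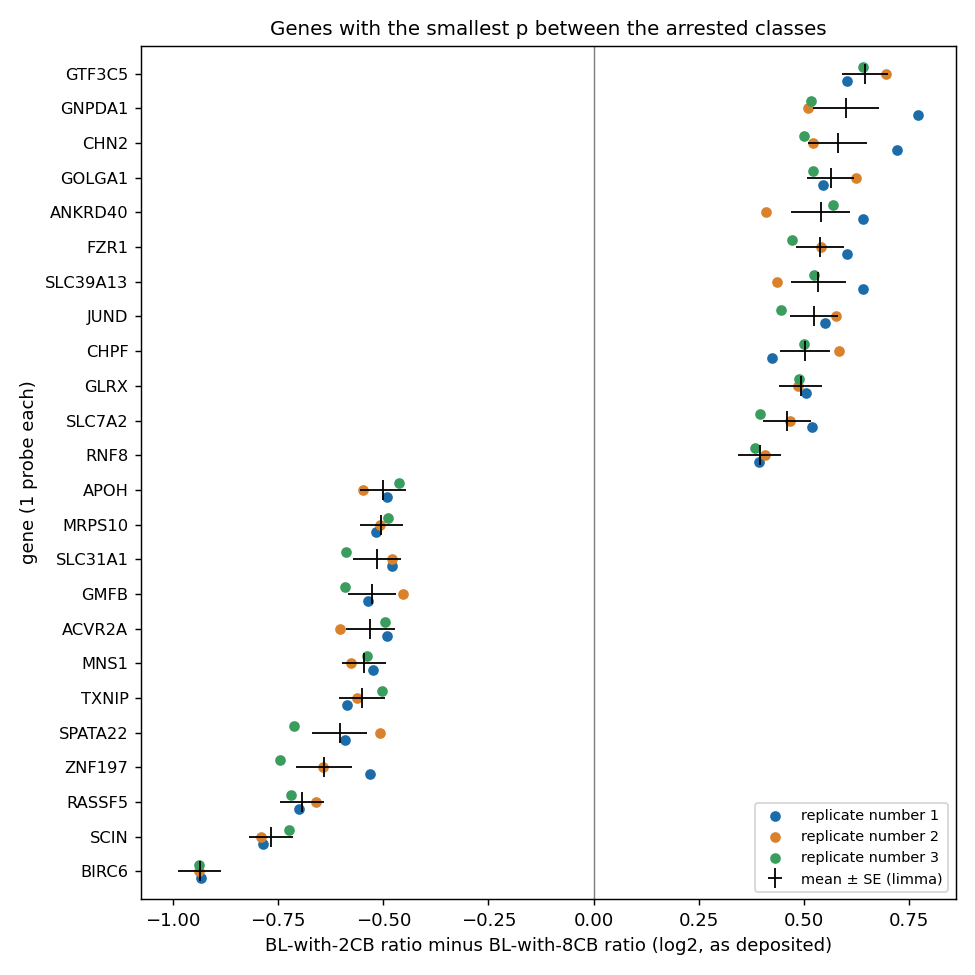
Differences between the ratio in BL with 2CB and the ratio in BL with 8CB (log2 units, horizontal axis) for the 24 genes with the smallest p, 1 probe each. Points are the 3 replicate numbers, ticks with bars are the mean and its limma SE; the points lie on one side of 0 for every gene because the choice required it, from -0.94 for BIRC6 to 0.65 for GTF3C5.

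Gene groups were described through 24 lists that hold 1573 measured genes, by the share at an unadjusted p under 0.05 beside the 9.4% of all genes. No member of any list passed the adjusted threshold, and no smaller adjusted p than 0.45 occurred. In 19 of the 24 lists the share was above that of all genes. The number was 18 without replicate number 3, 15 without pairing, 12 with the filter on small ratios and 10 with a variance trend. It was 6 when ratios were turned by the labelled dyes, which cancels a class difference that both orientations carry alike. Beside each share stand its values without replicate number 3, where all genes had 3.49%, and without pairing by number, where all genes had 4.23%. All genes had 9.81% without number 1 and 11.6% without number 2, with 17 and 19 lists above. Those shares are not repeated for each list, and leaving out a number also leaves fewer differences for the fit. With all numbers the share was above 15% in 4 lists, those of the spindle, DNA damage, the respiratory chain and the mitochondrial ribosome. Genes beyond the 2 with the smallest p on each side of a list were picked after their values were seen.

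The spindle, kinetochore, centrosome and cytokinesis list had the highest share, with 17 of 81 genes (21%), 12 negative and 5 positive. Its median difference was -0.087, against 0.002 for all genes. By number the median was -0.133, 0.029 and -0.081 in 1, 2 and 3, so number 2 did not lean to the negative side. The share was 9.88% without number 3 and 8.64% without pairing, but 16% without number 1 and 30.9% without number 2. Of its genes 57 had a negative mean difference and 24 a positive one, against 7463 and 7750 of all genes.

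STIL, which starts the assembly of a new centriole, had replicate differences of -0.37, -0.31 and -0.45, and CEP76, which limits centriole duplication, had -0.26, -0.36 and -0.31. Their mean differences were -0.38 ± 0.06 and -0.31 ± 0.06 (SE, n = 3). The kinesins that slide spindle microtubules apart or act at cytokinesis lay on the same side: KIF20A at -0.53, KIF15 at -0.50, KIF20B at -0.45 and KIF11 at -0.30. KIF15 and KIF20B were closest to 0 in number 2, at -0.05 and -0.15. KIF20A and KIF11 were closest to it in number 1, at -0.29 and -0.10. NDC80, the outer kinetochore protein that grips microtubules, stood at -0.53 ± 0.18 (SE, n = 3), with replicate differences of -1.02, -0.15 and -0.43. Number 1 was thus far below the others there.

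Sorting the list by name, done after its values were seen, put 10 of 12 kinesins, 14 of 16 CENP centromere genes and 7 of 11 CEP centrosome genes on the negative side. At an unadjusted p under 0.05 were 4, 1 and 4 of them. The kinesin median was -0.376, -0.033 and -0.258 in numbers 1, 2 and 3, and the CEP median -0.189, -0.029 and -0.125. The CENP median was -0.430, 0.048 and -0.067 in numbers 1, 2 and 3, so that only number 1 departed far from 0. Tubulins, the building blocks of the spindle itself, went the other way, with 7 of 9 positive and a median of 0.162. Their median was 0.353, 0.137 and 0.016 in numbers 1, 2 and 3, and 1 of 9 had an unadjusted p under 0.05. TUBA1A, an alpha tubulin, differed by 0.21, 0.25 and 0.29, and CEP55, which brings the final cut between daughter cells, by 0.14, 0.42 and 0.34.

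The DNA damage response, p53 and repair list had 12 of 79 genes at that level (15.2%), with 10 on the negative side and a median of -0.065. Without number 3 it had 6.33%, and without pairing 10.1%. RAD54B, a motor of homologous recombination, differed by -0.74, -0.37 and -0.55, a mean of -0.55 ± 0.09 (SE, n = 3). APEX1, which cuts DNA at lost bases, differed by -0.23, -0.43 and -0.62, a mean of -0.43 ± 0.09 (SE, n = 3). The checkpoint kinase gene CHEK1 (-0.46), the mismatch repair gene MSH6 (-0.50), the end-joining kinase gene PRKDC (-0.42) and NBN (-0.42), which senses double-strand breaks, lay on the same side. In these 4 genes number 2 was the closest to 0, between -0.07 and -0.18. RAD51B (0.28) and SESN2 (0.21), a p53 target induced by stress, were the positive members at an unadjusted p under 0.05. Of all 79 genes, 30 had a positive mean difference and 49 a negative one.

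**Figure D3:**
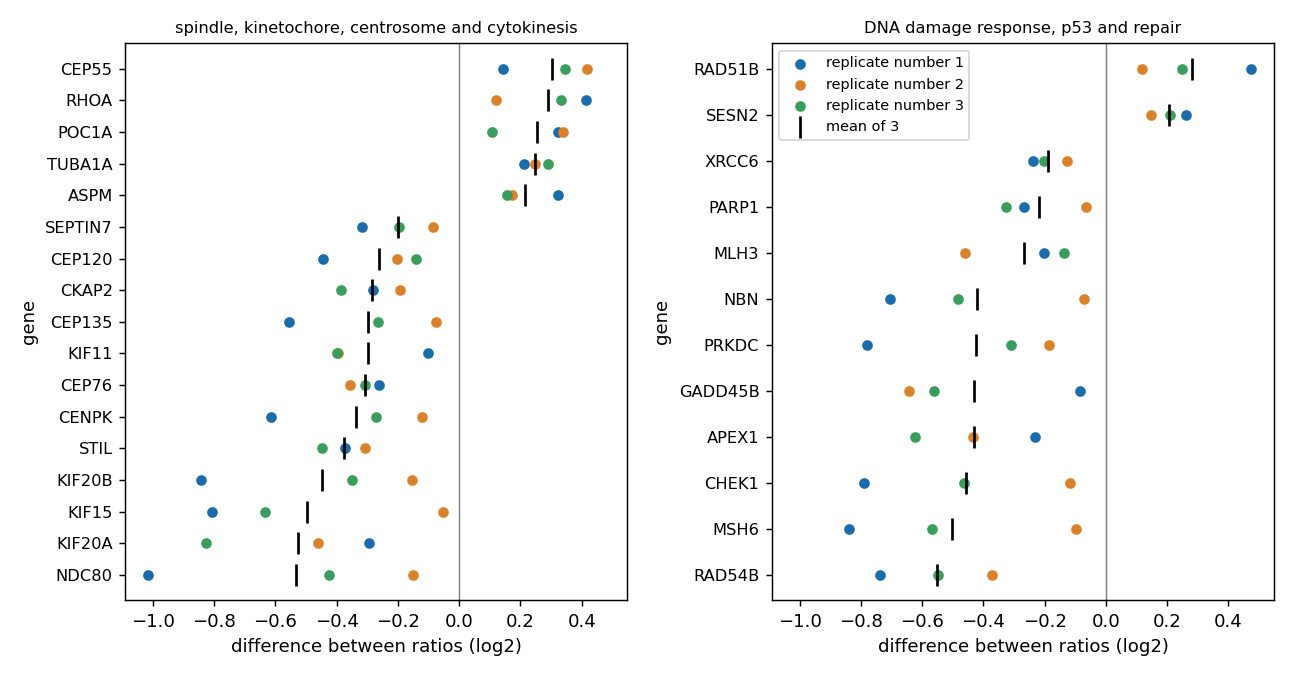
Replicate differences (points) and their mean (ticks) in log2 units for the members of the spindle list (left, 17 genes) and of the DNA damage list (right, 12 genes) at an unadjusted p under 0.05. Negative members are 12 and 10; in many of them, such as NDC80 and CHEK1, number 1 lies farthest from 0 and number 2 nearest.

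Genes that drive mitosis lay on both sides. In the list of mitotic kinases, the APC/C and the spindle checkpoint 7 of 58 genes (12.1%) were at an unadjusted p under 0.05, 3 positive and 4 negative. That share became 5.17% without number 3 and 8.62% without pairing. BUB1B, the checkpoint protein BUBR1, had replicate differences of -0.67, -0.32 and -0.58 and a mean of -0.52 ± 0.09 (SE, n = 3). The APC/C subunits CDC16 (-0.39) and ANAPC4 (-0.35) lay on its side and ANAPC7 (0.26) on the other, which was also that of the activator FZR1. Among 13 APC/C subunits 10 were negative, with a median of -0.049.

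The cyclins, CDKs and their regulators had 6 of 54 genes at that level (11.1%), 5 of them positive, and 5.56% without number 3 and 7.41% without pairing. CCNB1 encodes cyclin B1, the partner of CDK1 at entry into mitosis. Its ratios were 0.043, -0.18 and -0.28 in BL with 2CB and -0.33, -0.60 and -0.47 in BL with 8CB. These groups did not overlap, and the difference was 0.33 ± 0.07 (SE, n = 3, unadjusted p = 0.00892, adjusted p = 0.456 in limma). CKS2, a small subunit of CDK complexes (0.24), CDC25A, the phosphatase that switches CDKs on (0.23), SKP2 (0.28), which marks CDK inhibitors for destruction, and TFDP1 (0.26), the partner of E2F, lay on the same side. E2F3 lay on the other, at -0.29. The 4 probes of SKP2 ran from -0.11 to 0.74.

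CDK1, PLK1, WEE1 and CDC25C had intervals that held 0. CDK1 differed by -0.032, 0.46 and -0.026, a mean of 0.13 with a 95% interval from -0.20 to 0.47. PLK1, the polo kinase of mitotic entry, had a mean of 0.099 (95% interval -0.22 to 0.42), set by number 1 alone at 0.41. Of its 3 probes, which ran from -0.03 to 0.34, 2 had the opposite sign. WEE1, the kinase that restrains CDK1, had the narrowest interval of these genes, from -0.12 to 0.19 around 0.036. CDC25C stood at -0.071 (95% interval -0.43 to 0.29). For CDK1, PLK1 and CDC25C the side of 0 changed when 1 replicate number was left out.

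The DNA replication list held few small p-values, with 4 of 63 genes (6.35%), the same share without number 3 and 4.76% without pairing. WDHD1, which ties the replicative helicase to the polymerase, was its lowest named gene at -0.30 ± 0.06 (SE, n = 3), with RPA2 (-0.23) and RPA1 (-0.22), which coat single-stranded DNA, beside it. MCM2, part of the helicase, lay on the positive side at 0.17. Probes parted in sign for RPA2, at -0.48 and 0.02, and for MCM2, from -0.14 to 0.40.

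Mitochondrial genes came next in share. The respiratory chain and ATP synthase list had 12 of 78 genes (15.4%), 8 negative and 4 positive. UQCRQ, a subunit of complex III, differed by 0.64, 0.52 and 0.40, a mean of 0.52 ± 0.07 (SE, n = 3). Subunits of complex I lay on both sides: NDUFC1 at -0.53, NDUFS4 at -0.52, NDUFA6 at -0.41 and NDUFB1 at -0.38, but NDUFS6 and NDUFA13 at 0.25 and 0.22. Over all 37 complex I genes the median was -0.004. Leaving out number 3 gave the list a share of 12.8%. Without pairing it was 1.28%, and with the 12 arrays entered singly 3.85%, where all genes had 5.53%, so in both it lay below the share of all genes.

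The mitochondrial ribosome, import and dynamics list had 17 of 110 genes (15.5%), with 11 negative and 6 positive. It had 5.45% without number 3 and 6.36% without pairing. MRPS22, of the small subunit, differed by -0.37 ± 0.07 and MRPL51, of the large subunit, by -0.29 ± 0.06 (SE, n = 3). MRPL18 (-0.51) and MRPL42 (-0.45) were farther from 0, as were MRPL14 (0.49), MRPL11 (0.46) and MRPL4 (0.45) on the other side, where number 1 reached 0.86 to 0.98. TFAM, which packs and transcribes mitochondrial DNA, stood at -0.29 ± 0.07 (SE, n = 3). The large-subunit genes had a median of 0.038 and the small-subunit genes of -0.052. The 2 probes of MRPL51 parted, at -0.62 and 0.04.

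Fuel genes were divided as well. In glycolysis, the pentose phosphate path and the TCA cycle 9 of 62 genes (14.5%) were at an unadjusted p under 0.05, 5 positive and 4 negative. The list had 6.45% without number 3 and 4.84% without pairing. PFKFB3, which makes the activator of phosphofructokinase, differed by -0.36, -0.70 and -0.49, a mean of -0.52 ± 0.09 (SE, n = 3). The sugar and monocarboxylate transporters SLC2A3 (0.30 ± 0.06) and SLC16A1 (0.28 ± 0.06; SE, n = 3) lay on the positive side. The 3 probes of SLC16A1 ran from -0.11 to 0.87, and 1 had the opposite sign.

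In fatty acid oxidation and lipid storage 9 of 63 genes (14.3%) were at that level, 6 of them negative. Without number 3 and without pairing alike the share was 3.17%, below that of all genes in each. CD36, a fatty acid transporter, had ratios of -0.11, -0.03 and -0.23 in BL with 2CB and 0.39, 0.35 and 0.32 in BL with 8CB. The groups lay on opposite sides of 0 and differed by -0.47 ± 0.06 (SE, n = 3). These are means of 3 probes, whose differences ran from -0.83 to -0.01. PLIN2, a coat protein of lipid droplets, stood on the same side at -0.47 ± 0.11 (SE, n = 3), and ETFDH, which passes electrons from fat oxidation to the respiratory chain, at -0.42.

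Among the antioxidant and redox enzymes 8 of 81 genes (9.88%) were at an unadjusted p under 0.05, 6 negative and 2 positive, a share close to that of all genes (7.41% without number 3 and 8.64% without pairing). The list nevertheless held BLVRA, biliverdin reductase A, which makes the antioxidant bilirubin and had the lowest difference of all 15213 genes. Its ratios were -0.68, -0.82 and -0.40 in BL with 2CB and 0.78, 0.042 and 1.21 in BL with 8CB. All of the first were below 0 and all of the second above it, although number 2 was close to 0. The mean ratios were -0.64 and 0.68, and the difference was -1.31 ± 0.17 (SE, n = 3, unadjusted p = 0.00106, adjusted p = 0.45 in limma). That difference is 2.48-fold, from 1 probe, and the SD of the 3 replicate differences was 0.40.

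NQO1 (-0.48) and SRXN1 (-0.23), a quinone reductase and the enzyme that repairs over-oxidised peroxiredoxins, lay on the negative side, as did GSTCD at -0.34 ± 0.05 (SE, n = 3). PRDX1, a peroxiredoxin that reduces hydrogen peroxide, lay on the positive side with replicate differences of 0.80, 0.17 and 0.32 and a mean of 0.43 ± 0.14 (SE, n = 3). NFE2L2, the transcription factor NRF2 that governs many of these genes, had differences of -1.25, 0.038 and -0.54, and the mean of -0.58 had a 95% interval from -1.29 to 0.12. SOD1, the cytosolic superoxide dismutase, had -1.30, 0.039 and -0.41 and an interval from -1.30 to 0.19. In both, number 2 stood at about 0 and number 1 far below it.

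Catalase (CAT), which splits hydrogen peroxide, had ratios of -0.47, -0.95 and -0.43 in BL with 2CB and -0.51, -1.20 and -0.67 in BL with 8CB. It was thus below 0 in both comparisons, and their difference of 0.18 had a 95% interval from -0.015 to 0.37. AKR1B1, an aldehyde-reducing enzyme, was above 0 in all 6 ratios, and its difference of 0.33 had an interval from -0.0048 to 0.66. For SOD2, the mitochondrial dismutase, the interval ran from -0.24 to 0.11, for TXN, thioredoxin itself, from -0.23 to 0.19, and for GPX4, which clears lipid peroxides, from -0.20 to 0.75.

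Maternal messages and the genes that handle them were split evenly between the sides. In the oocyte and maternal-effect list 6 of 43 genes (14%) were at an unadjusted p under 0.05, 3 on each side, and the median was 0.066. The germ-cell RNA-binding genes DAZL (-0.30 ± 0.10) and DDX4 (-0.21 ± 0.08; SE, n = 3) were negative. AGO2, the small-RNA effector (0.38 ± 0.12), and NOBOX, an oocyte transcription factor (0.33 ± 0.11; SE, n = 3), were positive. Both without number 3 and without pairing the share was 2.33%, below that of all genes. ZAR1, a maternal-effect gene needed for the oocyte-to-embryo transition in mouse, had a mean of -0.17 with a 95% interval from -0.42 to 0.085.

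For polyadenylation and decay of maternal mRNA 6 of 57 genes (10.5%) were at that level, 3 on each side, with 7.02% without number 3 and 5.26% without pairing. PAN3, part of an enzyme that shortens poly(A) tails, differed by -0.49, -0.40 and -0.34, a mean of -0.41 ± 0.06 (SE, n = 3). TENT2, also called GLD2, lengthens tails in the cytoplasm and stood at -0.60 ± 0.15 (SE, n = 3), with -0.95 in number 1 and -0.25 in number 2. CNOT3, of the CCR4-NOT deadenylase, lay on the positive side at 0.44 ± 0.10 (SE, n = 3). BTG4, the adaptor that directs this deadenylase to maternal mRNA in mouse, had a mean of -0.069 and a 95% interval from -0.36 to 0.22.

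In genome activation and general transcription 9 of 66 genes (13.6%) were at an unadjusted p under 0.05, 6 positive and 3 negative. POLR2G, a subunit of RNA polymerase II, differed by 0.35, 0.44 and 0.58, a mean of 0.46 ± 0.07 (SE, n = 3). TBPL2, the form of the TATA-binding protein used by mouse oocytes, was positive at 0.33 ± 0.05, and the general form TBP was negative at -0.20 ± 0.06 (SE, n = 3). Without number 3 the share was 10.6%, and without pairing 3.03%, below that of all genes.

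Protein synthesis and breakdown held some of the larger positive differences. Among translation factors 9 of 60 genes (15%) were at that level, 4 positive and 5 negative. It was 5% of them without number 3 and 6.67% without pairing. EIF4A1, the helicase that opens 5' leaders for the ribosome, differed by 1.05, 0.40 and 0.73, a mean of 0.73 ± 0.14 (SE, n = 3). EIF4H, which assists it, differed by 0.35 ± 0.05 (SE, n = 3). EIF4ENIF1, which binds the cap-binding protein and holds mRNA silent, was negative at -0.45 ± 0.11 (SE, n = 3). Sorted by name after their values were seen, 6 of 14 EIF4 factors had an unadjusted p under 0.05, 3 on each side, and 0 of 12 EIF3 subunits. For cytosolic ribosomal proteins it was 6 of 66 (9.09%), among them RPL37 at 0.50 ± 0.09 (SE, n = 3) and RPL14 at -0.32 ± 0.08, and 3.03% without number 3 or without pairing, below the share of all genes.

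In the proteasome and ubiquitin list 9 of 76 genes (11.8%) were at that level, 7 positive and 2 negative. ADRM1, the ubiquitin receptor of the proteasome cap, differed by 0.92, 0.59 and 0.57, a mean of 0.69 ± 0.09 (SE, n = 3). UBA1, the enzyme that activates ubiquitin, had ratios of 0.25, 0.16 and 0.03 against -0.13, -0.22 and -0.26, a difference of 0.35 ± 0.06 (SE, n = 3). UBE2L3 stood at 0.77 ± 0.25 (SE, n = 3), but its number 1 was at 1.46 and the others at 0.47 and 0.37. UBE2B, a conjugating enzyme, lay on the other side at -0.46 ± 0.09 (SE, n = 3). The list had 10.5% without number 3 and 5.26% without pairing.

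Among chaperones 12 of 87 genes (13.8%) were at an unadjusted p under 0.05, 8 negative and 4 positive, with a list median of -0.023. HSPE1, the mitochondrial co-chaperonin, was lowest at -0.74 ± 0.19 (SE, n = 3), with -1.19, -0.26 and -0.77. HSPA4 stood at -0.51 ± 0.12, HSPA13 at -0.30 ± 0.08 and HSP90AA1, the inducible cytosolic HSP90, at -0.38 ± 0.12 (SE, n = 3), while HSPA2 was positive at 0.32 ± 0.08. Their share was 4.6% both without number 3 and without pairing, somewhat above that of all genes.

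RNA processing, chromatin, cell death and nuclear transport made up the remaining groups. Pre-mRNA splicing had 9 of 95 genes (9.47%), or 5.26% without number 3 and 2.11% without pairing, with SNRPG, a core protein of the spliceosome, at -0.32 ± 0.07 (SE, n = 3) and MAGOH and RBM8A, partners in the exon junction complex, at -0.60 and -0.26. Chromatin regulators had 12 of 97 (12.4%), 5 positive and 7 negative, or 7.22% without number 3 and 2.06% without pairing. HDAC1, a histone deacetylase, differed by -0.58, -0.28 and -0.98, a mean of -0.62 ± 0.15 (SE, n = 3), and BMI1, a Polycomb protein, by 0.38 ± 0.07 (SE, n = 3).

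In the nuclear pore and transport list 8 of 60 genes (13.3%) were at that level, or 5% without number 3 and 6.67% without pairing, with NUP54 of the central channel at -0.52 ± 0.11 (SE, n = 3). Apoptosis genes had 6 of 52 (11.5%), 2 positive and 4 negative, and 5.77% without number 3 or without pairing. CASP8, the initiator caspase of death receptors, differed by -0.36, -0.31 and -0.46, a mean of -0.38 ± 0.06 (SE, n = 3). RIPK1, a kinase of the same signalling complex, was positive at 0.27 ± 0.07 (SE, n = 3).

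Markers of other cells that a pool could hold were looked at as lists. Of 88 such genes measured, 3 were at an unadjusted p under 0.05: STAR (0.23) among 35 cumulus and granulosa markers, SMCP (-0.21) among 31 sperm and testis markers and CSF1R (-0.23) among 22 blood and immune markers. In that order the 3 lists had 2.86%, 0% and 0% without number 3 and 0%, 3.23% and 4.55% without pairing. The extremes of these lists were -0.285 and 0.235. Levels are not in the files used here, so only these differences can be given.

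**Figure D4:**
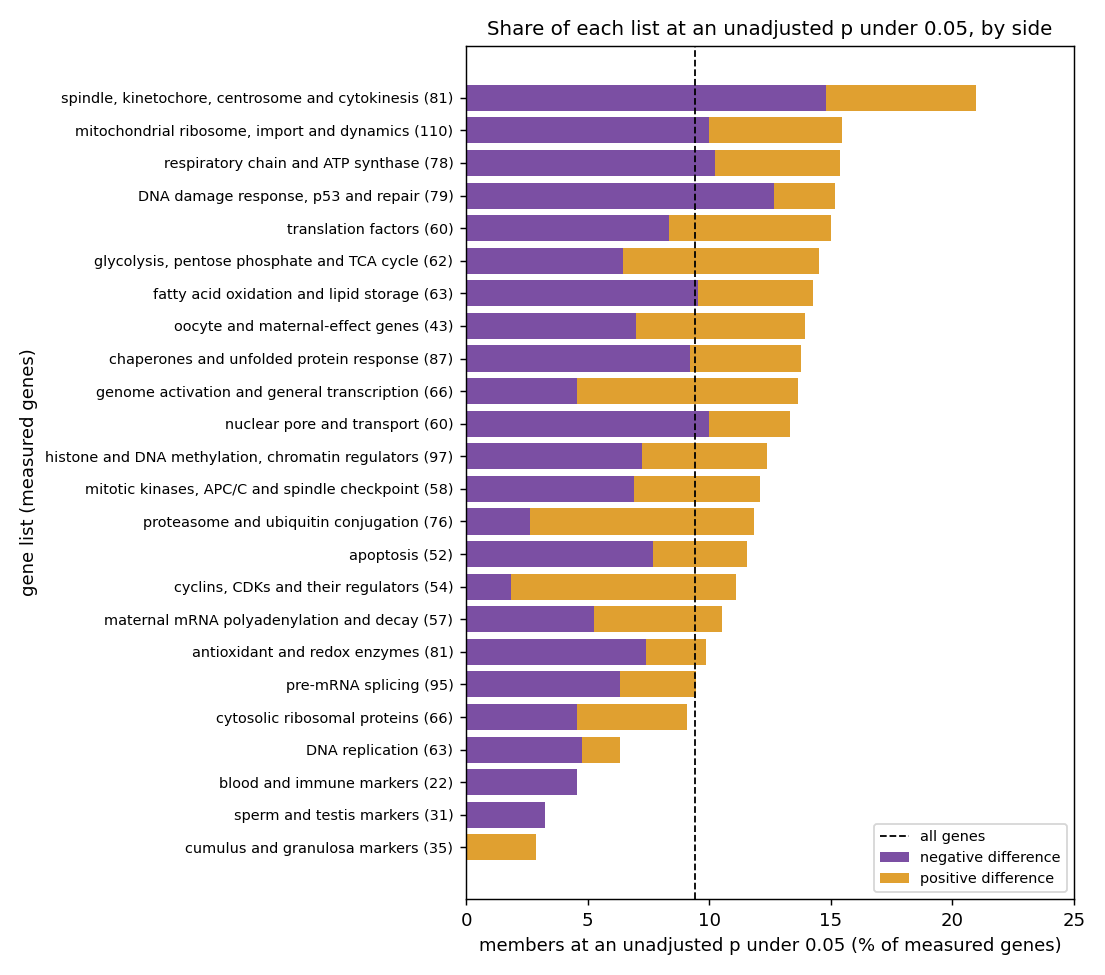
Share of the measured genes of each list at an unadjusted p under 0.05 in limma's paired test (horizontal axis, percent), split into negative and positive differences, with the number of measured genes in brackets. The dashed line is the 9.4% of all genes; the spindle list reaches 21%, and the lists of markers of other cells lie between 2.86% and 4.55%.

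Of the 130 genes named by rule, 14 had all 3 ratios on one side of 0 in BL with 2CB and on the other side in BL with 8CB, 8 with a negative and 6 with a positive difference. Over all probes this pattern was met at 2.15%, but the naming rule favours it, so nothing is read from the count. Whatever the numerator, the ratios of these genes thus lay above BL in one class and below it in the other, if all ratios run the same way. Neither class was tested against BL here. Some ratios were close to 0, such as 0.042 in BLVRA and -0.02 in FZR1, and the mean ratios of INHA were -0.05 and 0.05. BLVRA had the largest distance between the classes. The mean over CD36 probes and the 1 chosen RASSF5 probe had tight ratios in both comparisons. Single probes parted more, from -0.83 to -0.01 in CD36 and from -0.69 to -0.02 in RASSF5.

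**Figure D5:**
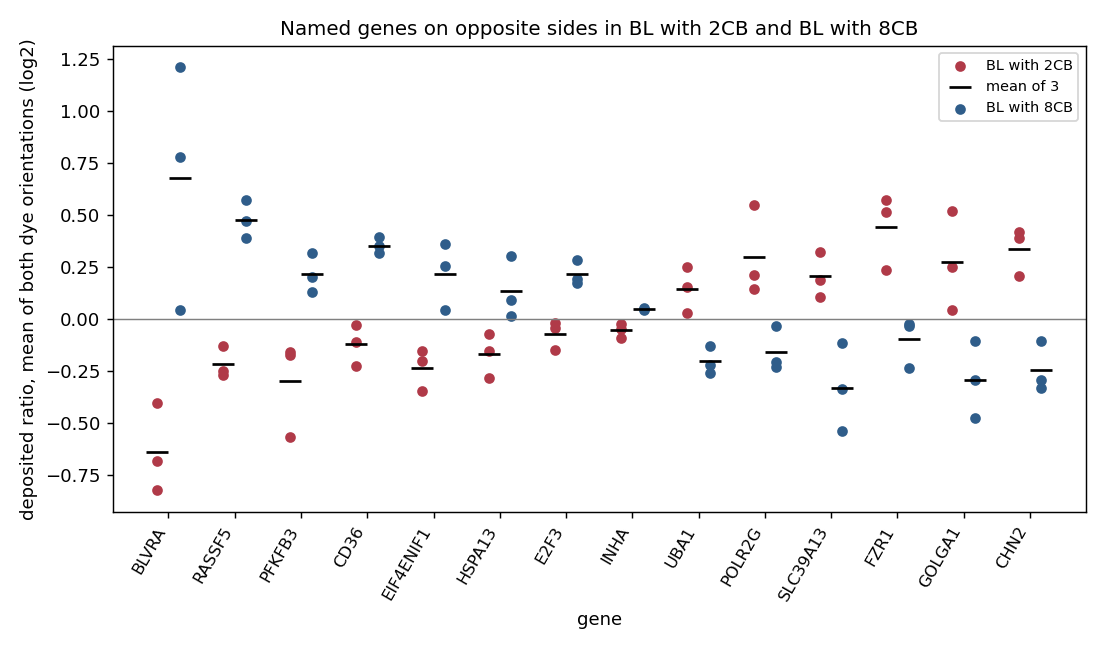
Deposited ratios (log2, mean of both dye orientations, vertical axis) of the 14 named genes whose 3 ratios lie on opposite sides of 0 in BL with 2CB (red) and BL with 8CB (blue). Points are replicate numbers and bars their mean; BLVRA has means of -0.64 and 0.68, and INHA the smallest distance, -0.10.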

How the data were processed

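RNA of 12 two-colour Agilent arrays was compared. The authors deposited a table of log ratios, taken here as log2 since the base is not given in the sources used here; the submitters' processing notes list limma. No intensities were used here, so the number of arrays limits precision and no filter on dim spots was possible. Of 43795 rows, 1 outside the numbered probes and 1 with a missing value were left out. Of 43793 probes, 21790 had 1 symbol in the platform annotation (1644 updated to current RefSeq names), 0 had several and 22003 were unnamed here, and gene values are means of a gene's probes.

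The columns with BL in Cy5 hold up to 6 significant digits and the others up to 10. Since the class differences of both orientations correlate positively, ratios were used as deposited. Turning them by the labelled dyes was an alternative. It changes the sign of the arrays with the arrested class in Cy5, which cancels a class difference that both orientations carry alike. Dye orientations of one replicate number were averaged into 1 replicate. The paired differences were fitted with limma 3.58.1 in R 4.3.3 (lmFit, eBayes, two-sided, Benjamini-Hochberg over all probes or genes, threshold 0.05), after tests on simulated data. Same-numbered samples of the 2 comparisons deviated together (r of 0.30, 0.39 and 0.35), so the numbers were taken to pair them; both comparisons hold BL. The labels call the pools independent.

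The members, gene lists and naming rule were chosen with earlier results of these data known. Named are the 12 genes per side with the smallest p, with one sign in 3 of 3 differences and in both orientations, 2 genes per side and list by p with one sign, and 15 genes given in every case. Shares of the lists under other settings were added after the data were seen.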

Additional observations from a re-analysis of the deposited data

Results flagged for a closer look

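Among the 130 genes named by rule, 14 had all 3 ratios on one side of 0 in BL with 2CB and all 3 on the other side in BL with 8CB. The difference itself was tested by limma's paired fit and passed an adjusted p of 0.05 in none of them. The negative differences were -1.31 for BLVRA, -0.69 for RASSF5, -0.52 for PFKFB3, -0.47 for CD36, -0.45 for EIF4ENIF1, -0.30 for HSPA13, -0.29 for E2F3 and -0.10 for INHA. The positive differences were 0.58 for CHN2, 0.56 for GOLGA1, 0.54 for FZR1, 0.53 for SLC39A13, 0.46 for POLR2G and 0.35 for UBA1. All are in log2 units, BL with 2CB minus BL with 8CB, over 3 replicate numbers.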

How the results depend on the processing

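No probe passed an adjusted p of 0.05 under any alternative run, nor 0.10 in the paired fit; the smallest adjusted p, 0.0664, came from the 12 arrays entered singly with a random block. The count at an unadjusted p under 0.05, 4299 as reported, was 1985 (4.53%) with no replicate block, 2594 (5.92%) with the random block, 2090 with only the arrested class in Cy5, 2542 with only BL in Cy5, 198 (0.452%) when turned by the labelled dyes, and 2280 (10.4% of fewer probes tested) with the filter on small ratios. Leaving out 1 replicate number gave 1782 (without number 3) to 5096 (without number 2). Centring, scaling, quantile normalization, robust moderation and the variance trend gave 4134 to 4698. Turning by the labelled dyes cancels a class difference that both orientations carry alike. The cause of these shifts was not tested. The block changed no call.

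The 109 named values that changed side all lacked a call. Outside the labelled dyes there were 13. TXN went from -0.018 to 0.083 with only the arrested class in Cy5 and to 0.016 after quantile normalization. With only BL in Cy5, FST was 0.010, CD8A -0.022, WEE1 -0.016 and BTG4 0.22. FIS1 was -0.029 by the median of its probes. Leaving out 1 number gave PLK1 -0.055 to 0.18, CDC25C -0.25 to 0.019, TXN -0.083 to 0.060, CDK1 -0.029 to 0.22 and BTG4 -0.21 to 0.0039.

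Turned by the labelled dyes, 96 of 133 named values changed side. Of the 24 genes with the smallest p, these became positive: BIRC6 0.17, MNS1 0.051, TXNIP 0.036, MRPS10 0.047, ZNF197 0.041, SPATA22 0.24, GMFB 0.13 and SLC31A1 0.069. These became negative: GTF3C5 -0.10, GOLGA1 -0.034, GLRX -0.063, FZR1 -0.012, JUND -0.0084, CHPF -0.15, CHN2 -0.074, SLC39A13 -0.16, SLC7A2 -0.086, RNF8 -0.040 and GNPDA1 -0.14. Of the gene means, these became positive: DAZL 0.022, DDX4 0.050, PAN3 0.064, TENT2 0.027, GTF2A1 0.089, TBP 0.0045, E2F3 0.17, BUB1B 0.071, PPP2R2A 0.037, STIL 0.016, WDHD1 0.044, RPA2 0.0051, RAD54B 0.15, APEX1 0.13, BLVRA 0.30, NDUFS4 0.12, NDUFB1 0.12, MRPS22 0.040, MRPL51 0.026, RPL26L1 0.14, RPL14 0.11, UBE2B 0.17, PSMG2 0.089, HSPA4 0.0028, HSPA13 0.033, SNRPG 0.019, RBM8A 0.14, HDAC1 0.13, KDM3A 0.16, CASP8 0.066, BIRC6 0.046, PFKFB3 0.15, IDH1 0.020, CD36 0.054, NUP205 0.12, FST 0.13, SMCP 0.086, ZPBP 0.057, CSF1R 0.019, SPI1 0.076, CDC25C 0.021, BTG4 0.29, ZAR1 0.014, SOD1 0.075 and NFE2L2 0.10. These became negative: AGO2 -0.048, CNOT3 -0.11, CPEB2 -0.10, POLR2G -0.19, CCNB1 -0.079, FZR1 -0.012, CEP55 -0.062, SESN2 -0.090, GLRX -0.038, NDUFA13 -0.030, MRPS2 -0.051, FIS1 -0.11, RPL37 -0.080, RPL10A -0.095, EIF4A1 -0.063, ADRM1 -0.13, UBA1 -0.14, PRPF6 -0.012, BMI1 -0.25, BNIP1 -0.035, RIPK1 -0.093, SLC2A3 -0.0026, SLC16A1 -0.22, CPT1B -0.0061, XPO6 -0.080, NUP188 -0.055, SPATA19 -0.046, ZPBP2 -0.032, HBM -0.014, CD8A -0.087, WEE1 -0.052 and GPX4 -0.026.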
